A study of Sus scrofa with 3 samples.

Results

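The long CG-poor regions are stretches of pig liver DNA of at least 1000 bp, with fewer than 0.10 CG sites per bp, whose CG methylation was listed by the authors as different between breeds. They were taken from chromosomes 1 to 18 of the 3 deposited lists of differentially methylated regions, by length and by the number of CG sites divided by length. There were 394 of them among the 25044 regions of the series and the 20588 regions on these chromosomes. The livers came from male pigs at postnatal day 90. The breeds were the Enshi black pig (ES), kept in China, the Large White pig (LW), which comes from Europe, and the Chinese wild boar (WB), and ES/LW, ES/WB and LW/WB name the lists. Each breed had 1 bisulfite methylome, and no treatment or altered allele is named for any of them. The protocol mentions 3 male pigs, and whether a methylome stands for 1 pig or for a pool was not given in the sources used here. Liver is a mixture of cell types, and DNA methylation alone gave no marker by which the tissue was checked.

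Vertebrate CG sites are sparse because methylated cytosine tends to mutate to thymine, and most of those that remain outside CpG islands carry methylation. Stretches that lose methylation in a CG-poor background often mark enhancers or the edges of promoters, and wide stretches of partial methylation are known from late-replicating, gene-poor DNA. A methylation level is the share of DNA molecules in which the cytosine is methylated. Both alleles and all cells of the liver enter it, so a level near the middle of the scale can come from different mixtures, which these data do not separate.

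The ES/LW list held 158 long CG-poor regions, the ES/WB list 159, and the LW/WB list 77. They made up 2.16%, 2.03% and 1.42% of the autosomal regions of these lists. They covered 355 distinct places and 733.9 kb. Of the places, 316 had a long region in 1 list, 39 in 2 lists and 0 in all 3. The 394 long regions formed 39 overlapping pairs, beside 4847 pairs among all 20588 autosomal regions, where a partner of any length counts. A shorter region of another list is left out of the counts of places, so a place in 1 list need not differ in that list only. By chromosome, the long regions made up between 1.19% of the listed regions on chromosome 17 (8 regions) and 2.63% on chromosome 11 (23 regions). Every level below is the authors' estimate, averaged over the CG sites of a region that was listed because 2 breeds differed. Since a breed is represented by a single methylome, nothing measures the spread between pigs, no test between breeds was made, and the read depth behind each level is unknown.

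By the medians, CG sites were far sparser in these regions than the limit required. Length and CG number are what chose the regions, so these values only describe the choice. Length divided by the number of CG sites had a median of 235.1 bp in the ES/LW list, 221.4 bp in the ES/WB list and 210.4 bp in the LW/WB list. Over all autosomal regions the medians were 18.25, 17.5 and 16.2 bp. These are average densities, not distances between neighbouring CG sites, which can lie close together beside a long gap. In a region of 3653 bp on chromosome 14 (112471799 to 112475451), 23 of 24 CG sites lay within 202 bp. Yet the median number of CG sites was 8, 8 and 9, and over all autosomal regions it was 8 in each list. The long regions thus held about as many CG sites as the others, over a median length of 1512, 1698 and 1796 bp in place of 177, 177 and 164 bp. Of all 394, 224 held 4 to 9 CG sites, 142 held 10 to 49, and 28 held 50 or more. The densest long regions, with 1 CG site per 11.4, 10.6 and 11.7 bp, were denser than the median of all autosomal regions in their list.

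**Figure D1:**
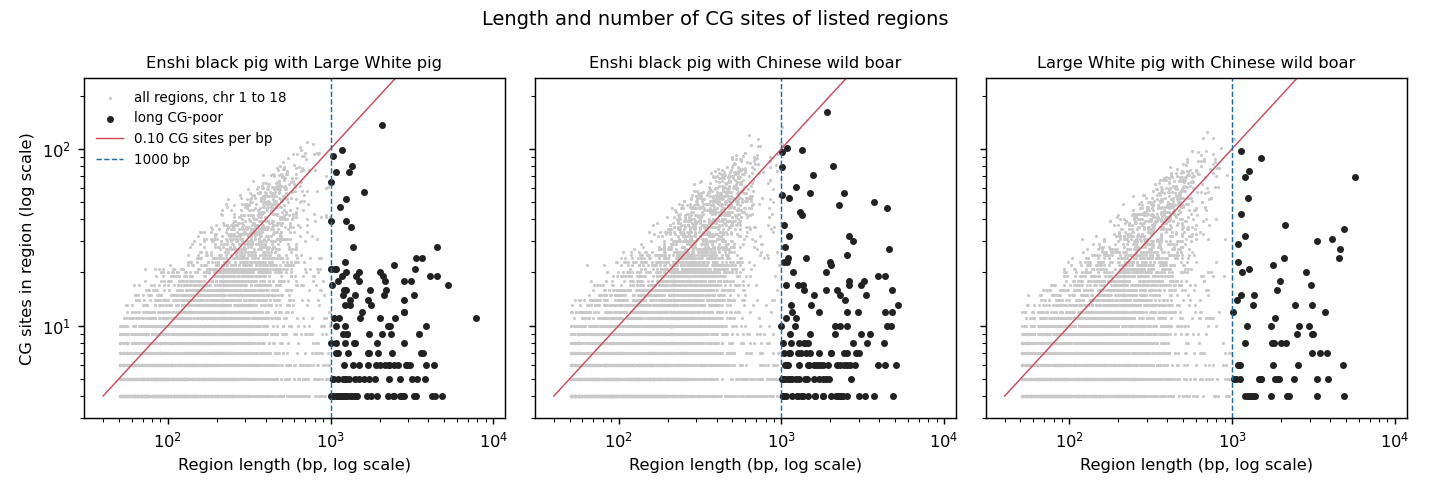
Number of CG sites (y axis, log scale) against length in bp (x axis, log scale) of each listed region on chromosomes 1 to 18, with 1 panel per list; black points are the long CG-poor regions, grey points all regions, the dashed line is 1000 bp and the red line 0.10 CG sites per bp. Of the black points, 224 of 394 lie at 4 to 9 CG sites.

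In length, the region next below the limit had 998 bp in the ES/LW list, 990 bp in the ES/WB list and 997 bp in the LW/WB list, and the shortest long regions had 1003, 1002 and 1016 bp. In CG density, the densest long regions had 0.0876, 0.0945 and 0.0855 CG sites per bp. Only 3 regions of at least 1000 bp were too dense. One of 1006 bp on chromosome 3 had levels of 49.8% in ES and 72.7% in WB. Another of 1007 bp on chromosome 18 had 42.0% in ES and 76.1% in WB. The third, of 1025 bp on chromosome 13, had 41.2% in LW and 64.3% in WB.

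The levels of the long CG-poor regions spread from 6.09% to 99.6% over the breeds and lists. In the list with LW, ES had a median level of 64.5% (quartiles 44.7% and 81.7%) over the 158 regions, and LW 64.0% (42.7% and 86.0%). In the list with WB, ES had 59.6% (45.7% and 78.0%) and WB 69.7% (52.3% and 90.1%). In the third list, LW had 64.5% (47.4% and 85.7%) and WB 66.8% (43.0% and 84.9%). ES had the lower median of the ES/WB list under every alternative rule tried, by 6.03 to 37.3 points. The order was the same over all autosomal regions of that list, with 61.8% in ES and 67.3% in WB, so it is not particular to the long regions. The order in the other lists turned with the rule. With regions of at least 1500 bp, LW had 71.4% and WB 56.6%, with chromosome X added 68.1% and 59.2%, with at least 750 bp 64.3% and 63.8%, and with differences of at least 40 points 78.8% and 49.5%. ES had 63.1% and LW 64.6% with chromosome X added, and 46.1% and 65.3% with differences of at least 40 points. No order between LW and either other breed is therefore read from these medians.

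Neither breed was the lower one throughout. ES was lower than LW in 84 regions and higher in 74, so that 53.2% were lower in it, beside 54.4% of all autosomal regions. It was lower than WB in 92 and higher in 67, a share of 57.9% beside 54.9%. LW was lower than WB in 38 and higher in 39, a share of 49.4% beside 51.0%. These shares are near those of all listed regions. Counted by single listed sites in place of regions, ES was lower than LW at 42.5% and lower than WB at 63.4% of the sites in long regions, and LW was lower than WB at 40.8%. The shares over all autosomal listed sites were 55.7%, 56.3% and 50.4%. Sites of 1 region are not independent, and a region with many CG sites counts more here, so the direction between ES and LW differs with the unit counted.

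The size of the difference had a median of 36.3 percentage points between ES and LW, 35.6 points between ES and WB and 35.1 points between LW and WB. Over all autosomal regions the medians were 33.2, 32.4 and 33.4 points. Differences of at least 40 points occurred in 70 (44.3%), 61 (38.4%) and 31 (40.3%) of the long regions, where the lists as a whole had 34.3%, 32.5% and 34.6%. The breed with the higher level stood above 80% in 94, 100 and 52 regions (59.5%, 62.9% and 67.5%), with 68.2%, 64.3% and 65.3% in the whole lists. The median over regions was 83.6%, 84.9% and 84.9% for the breed with the higher level and 43.4%, 48.5% and 46.3% for the one with the lower. Over all autosomal regions these medians were 88.4%, 87.4% and 87.2% for the higher and 48.5%, 47.7% and 47.1% for the lower, so a high level beside a partial one was the pairing in the whole lists too.

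**Figure D2:**
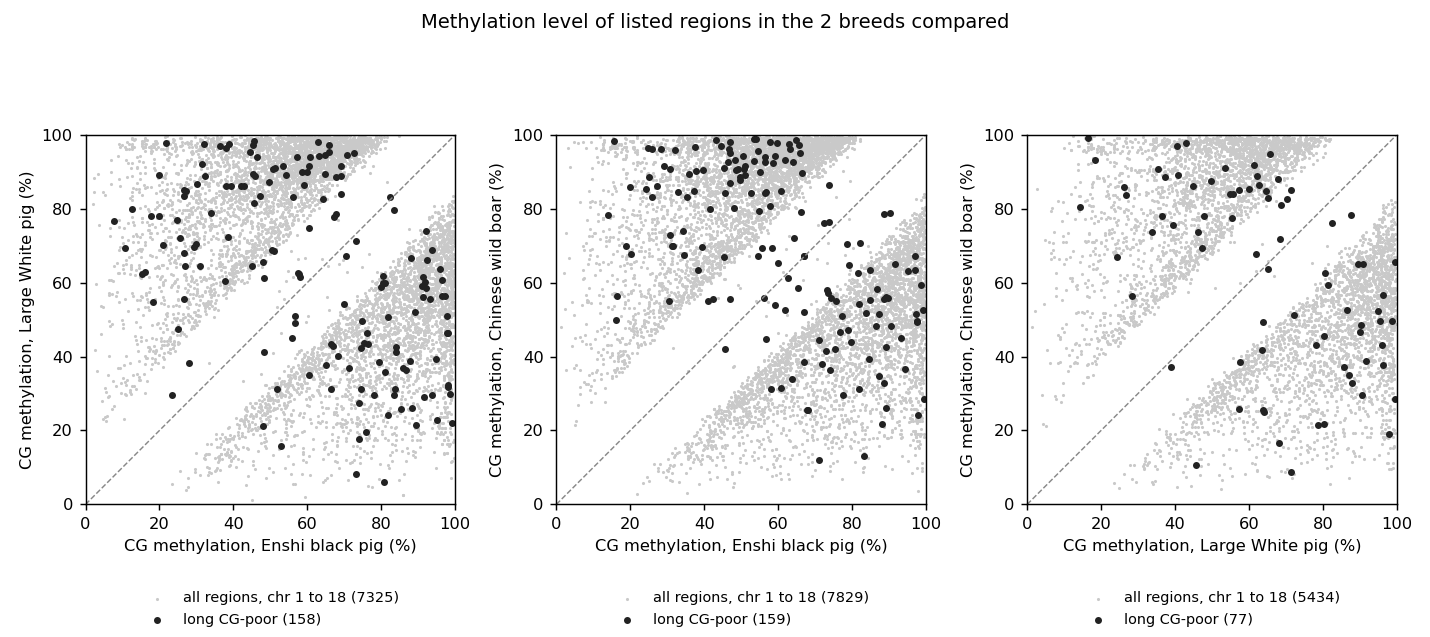
CG methylation level (%) of each listed region on chromosomes 1 to 18 in the first breed (x axis) and the second breed (y axis) of each list; black points are the long CG-poor regions, grey points all regions, and the dashed line marks equal levels. Black points lie on both sides of the line, 84 above and 74 below it in the first panel, and the band around the line holds 32 black points among 79 with a difference under 10 points.

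The 3 widest differences of each list and direction lay in regions of 4 to 24 CG sites. Between ES and LW, 4 CG sites over 1119 bp of chromosome 8 (114880051 to 114881169) had 99.0% in ES and 21.9% in LW. All 4 were also listed as single sites, with a median standard error of the difference, as deposited by the authors, of 7.52 points. In the other direction, 5 CG sites over 2297 bp of chromosome 13 (20184186 to 20186482) had 21.8% in ES and 97.9% in LW. A region of chromosome 18 (32590839 to 32592714) had 7.83% in ES and 76.7% in LW. A region of chromosome 4 (95330122 to 95331146) had 80.6% in ES and 6.09% in LW. In each of these 4 regions, all the listed sites differed in the direction of the region.

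Between ES and WB, the widest difference was on chromosome 9 (82534426 to 82535792), where 4 CG sites had 15.6% in ES and 98.3% in WB. A region of 15 CG sites over 1591 bp of chromosome 11 (2229147 to 2230737) had 24.7% and 96.5%, and all 15 sites were listed. WB was the lower breed by 73.6 points on chromosome 15 (86330187 to 86331191), with 97.8% in ES and 24.2% in WB. Between LW and WB, 8 CG sites over 2145 bp of chromosome 9 (39711157 to 39713301) had 16.6% in LW and 99.1% in WB. In the opposite direction, 4 CG sites over 3322 bp of chromosome 1 (223256668 to 223259989) had 98.0% in LW and 19.1% in WB. Each of these means rests on 4 to 15 CG sites.

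The 3 longest regions of each list differed by 1.88 to 40.2 points. The longest of all, 7825 bp of chromosome 9 (2785698 to 2793522) with 11 CG sites, had 91.1% in ES and 59.0% in LW, and 0 of its sites were listed singly. The longest between LW and WB, 5697 bp of chromosome 15 (153940663 to 153946359) with 69 CG sites, had 96.2% in LW and 56.6% in WB. The longest between ES and WB, 5203 bp of chromosome 3 (122465775 to 122470977) with 13 CG sites, had 46.9% in ES and 86.8% in WB. A region of 4883 bp on chromosome 8 (51694179 to 51699061) with 4 CG sites stood in both lists of WB. The breed had 62.7% there in either list, ES 81.5% and LW 80.5%.

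The 3 regions with the most CG sites in each list held 9 to 65 listed sites. On chromosome 4 (141842619 to 141844687), 136 CG sites over 2069 bp had 38.7% in ES and 72.3% in LW, with 52 listed sites and a median standard error of 3.32 points. On chromosome 12 (42239249 to 42240425), 99 CG sites had 24.6% in ES and 76.8% in LW, and 64 were listed, with a median standard error of 2.49 points. On chromosome 5 (24356430 to 24357773), 98 CG sites had 68.1% in ES and 25.6% in WB. On chromosome 15 (142702783 to 142703859), 101 CG sites had 71.9% in ES and 37.9% in WB. Over all listed sites in the long regions the median standard error was 4.46, 4.59 and 4.22 points in the 3 lists, in the order given at the start, against 6.90, 6.49 and 7.05 points over all autosomal listed sites. The 28 regions with 50 or more CG sites held 820 of the 2088 listed sites in long regions, with medians of 2.89, 3.14 and 2.58 points. In the regions with 4 to 9 CG sites the medians were 8.91, 8.78 and 9.94 points, above those of all autosomal listed sites.

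In many of the long regions the single listed sites lay close together. Of their 2265, 2599 and 1307 CG sites, 34.8%, 32.1% and 35.7% were also in the authors' lists of single sites, and 50, 43 and 23 regions held 0 listed sites. At least 2 listed sites were held by 87 of 158, 91 of 159 and 46 of 77 long regions. Over all autosomal regions these were fewer by share, 2079 of 7325, 2155 of 7829 and 1534 of 5434. The other counts of this paragraph were not made over all autosomal regions. Among the 113 regions with at least 5 listed sites, these spanned a median of 384 bp, or 28.9% of the region's length, and in 50 regions they all lay within 300 bp, while in 48 they spanned more than 50% of the length. On chromosome 14 (112471799 to 112475451), a region of 3653 bp had 94.99% in ES and 22.8% in LW. It held 24 CG sites, and 23 of them, all listed, lay in the last 202 bp, from 112475250 to 112475451. Its level is thus nearly that of this short CG-rich stretch and does not describe the whole 3653 bp. In another region of chromosome 14 (105528316 to 105532927), 5 listed sites within 41 bp stood for 27 CG sites over 4612 bp in the LW/WB list. The 23 sites of the region first named on chromosome 14 all had the same levels, 94.8% in ES and 20.7% in LW, so that neighbouring levels are not separate measurements.

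A difference under 10 percentage points was found in 11 (6.96%), 15 (9.43%) and 6 (7.79%) of the long regions. The whole lists had 0.464%, 0.422% and 0.221%, and 32 of the 79 such autosomal regions (40.5%) were long CG-poor regions. Of these 32, 7 held listed sites in both directions, 15 held 0 listed sites, and the other 10 held listed sites in 1 direction. The smallest difference was on chromosome 4 (137583442 to 137585341), where 161 CG sites, the largest number in any long region, averaged 67.0% in ES and 67.1% in WB. Inside it, 24 listed sites from 137583797 to 137584001 had mean levels of 49.8% in ES and 86.1% in WB. A further 39 from 137584935 to 137585151 had 77.4% in ES and 38.8% in WB. The equal means of this region thus hold 2 opposite differences. LW had 80.2% in an overlapping region (137583948 to 137585447), against 45.6% in WB, and all 53 listed sites there were higher in LW.

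Such turns of direction were present in 23 long regions. In some other regions all listed sites went against the regional mean, as on chromosome 3 (135804223 to 135805839). There ES had 27.9% and LW 38.4%, but all 5 listed sites were higher in ES. Regions of that kind are not counted as turns. Of the long regions with at least 2 listed sites, 9 of 87 (10.3%) held listed sites in both directions between ES and LW, 9 of 91 (9.89%) between ES and WB, and 5 of 46 (10.9%) between LW and WB. Over all autosomal regions with at least 2 listed sites the shares were 0.914%, 0.789% and 0.717%, and 23 of the 47 regions (48.9%) were long CG-poor regions. A longer region has more room for sites of both directions, and the part of length in these shares was not tested. In all 23 regions the direction turned once. The listed sites on either side of the turn were 685 to 4542 bp apart (median 1513 bp), and in 21 regions this gap took more than 50% of the length. The regional difference was 0.0245 to 38.4 points (median 16.3 points). The 46 groups of sites on either side of the turns differed by 34.1 to 96.1 points (median 60.8 points), each by more than its region. Listed sites were chosen because they differed, and the regional mean averages both directions. The larger difference of the groups is thus largely set by the choice.

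In 4 examples the breeds changed places over 1776 to 4842 bp. On chromosome 15 (96356716 to 96359392), 2 sites at one end had 98.7% in ES and 43.3% in LW, and 2 sites at the other end had 3.16% and 93.7%. These were all 4 CG sites counted in the region, so none lay in the 2421 bp between the groups. On chromosome 12 (2345880 to 2347655), 8 sites had 96.0% in ES and 19.9% in LW, and 5 sites at the far end had a mean of 40.6% and 97.0%. Here too these were all 13 CG sites counted, with none in the 1610 bp between the groups. On chromosome 1 (290347879 to 290352671), 5 sites had 15.1% in ES and 96.6% in WB, and 5 sites farther on had a mean of 90.2% and 22.3%. The mean over the 4793 bp of that region was 59.1% and 54.0%. On chromosome 1 (118506297 to 118511138), 17 sites had 14.4% in LW and 96.0% in WB, and 2 sites at the other end had 93.8% and 59.7%. In the 2 regions of chromosome 1, 10 of 12 and 19 of 35 CG sites were listed. In each of the 4 examples, 1 of the groups of sites differed in the opposite direction from the regional mean.

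**Figure D3:**
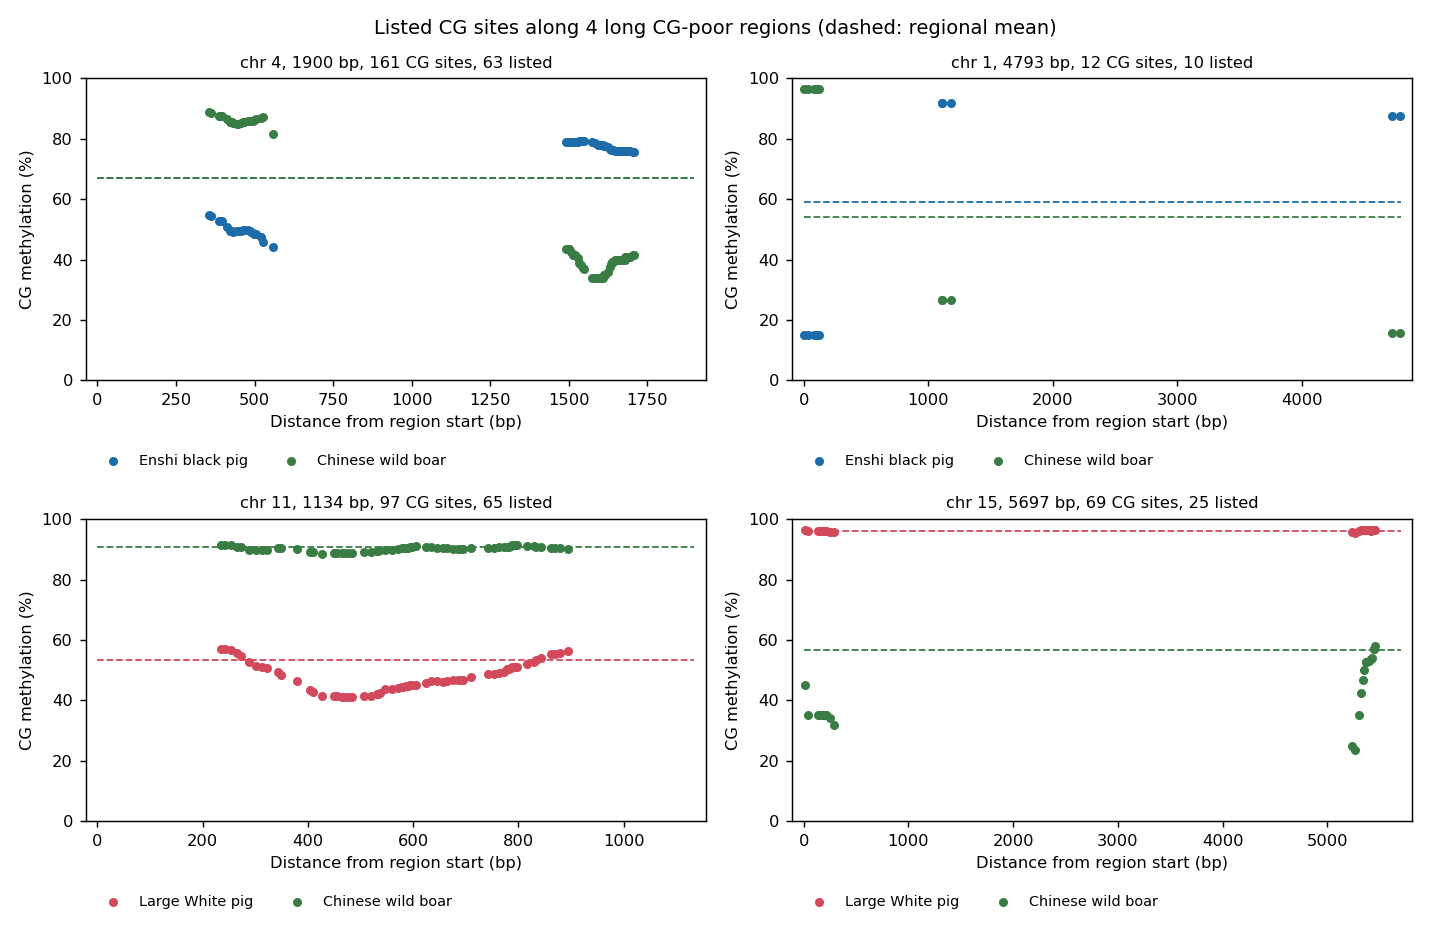
CG methylation level (%, y axis) of the listed CG sites in both breeds compared, by distance in bp from the start of the region (x axis), in 4 long CG-poor regions; colours are breeds and dashed lines the regional means. On chromosomes 4 and 1 the breeds change places between the groups of sites, on chromosome 11 WB stays between 88.6% and 91.5% over all 65 sites, and on chromosome 15 the listed sites lie at both ends of 5697 bp.

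At 39 places, long CG-poor regions of 2 lists overlapped, so that the level of the breed common to both lists was given in each. The 2 lists share that breed's methylome, so their levels are not independent. In 11 places the bounds were the same in both lists, and the levels of the common breed then differed by at most 0.0236 points. Where the bounds differed, the levels differed by up to 22.2 points for ES, 3.25 points for LW and 21.5 points for WB. The common breed lay on the same side of both others in 36 places, lower in 29 (74.4%) and higher in 7, and on opposite sides in 3. Over all 4847 overlapping pairs of autosomal regions from 2 lists, it lay on the same side in 97.9%, beside 92.3% of the long regions, and was lower in 66.0%. A place is among these because the common breed was listed against both others, so the same side is largely set by the choice, and a region of the third list overlapped only 7 of the 39 places. ES stood apart in 19 (16 lower, 3 higher), LW in 4 (all lower) and WB in 13 (9 lower, 4 higher). These counts take the sign of a difference of any size and an overlap of any length. On chromosome 6 (42148678 to 42150830), counted for ES, the overlap was 219 bp. ES had 58.1% there and LW 61.5%. On chromosome 7 (22845092 to 22847618), also counted for ES, it had 72.4% and WB 76.2%, with 7 listed sites higher and 6 lower in ES. Places where only 1 of the lists had a long region are not in these counts.

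In the 11 places with equal bounds the mean level of the common breed was lower each time, beside 80.3% of 1599 such pairs over all autosomal regions, and the other 2 breeds differed from each other by less than 3 points in 9 of them and by at most 13.4 points. On chromosome 6 (156401867 to 156404173), 10 CG sites had 50.7% in ES, 90.8% in LW and 90.8% in WB. On chromosome 3 (72891671 to 72892889), 10 CG sites had 45.3% in ES, 89.4% in LW and 90.9% in WB. On chromosome 15 (45566917 to 45569118), 16 CG sites had 49.7% in ES, 87.1% in LW and 88.7% in WB. A partial mean level in ES thus stood beside high means in both other breeds. Few of the CG sites were listed singly, with 1, 2 and 3 in these regions in either list of ES.

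WB had the lowest level of these places on chromosome 1 (235156803 to 235158984), where 4 CG sites over 2182 bp had 28.6% in it and 99.4% in both ES and LW. On chromosome 14 (105528316 to 105532927), 27 CG sites over 4612 bp had 49.7% in WB, 97.5% in ES and 95.5% in LW. On chromosome 13 (37470630 to 37473698), 17 CG sites over 3069 bp had 46.7% in WB, 76.7% in ES and 90.1% in LW. There the other 2 breeds also differed, by the 13.4 points given above, and 16 sites were listed between LW and WB but 0 between ES and WB. The 1 place of this kind for LW, on chromosome 13 (62297117 to 62298618) with 5 CG sites, had 61.8% in LW, 80.5% in ES and 67.8% in WB. Its lower mean against WB is an average of opposite differences, since 2 listed sites at one end had 99.2% in LW and 22.9% in WB, and 2 at the other end had 36.9% and 97.7%.

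LW had its place with the most CG sites on chromosome 11, where 91 CG sites (3040708 to 3041746) had 89.0% in ES and 52.2% in LW, and 97 CG sites (3040613 to 3041746) had 53.5% in LW and 90.9% in WB. Listed sites were 61 and 65, all in the same direction. Higher levels in the common breed were found on chromosome 2 (96265433 to 96266524), with 73.6% in WB and 33.8% in LW, and 34.3% in ES over nearly the same bounds. They were also found on chromosome 8 (139474571 to 139476010), with 93.1% in ES and 55.5% in LW, where WB had 63.4% over 17 of the CG sites. The 3 breeds had separate levels on chromosome 11 (4929349 to 4930666 and 4929429 to 4930666), at 96.5% in ES, 56.4% and 57.3% in LW, and 25.8% in WB.

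**Figure D4:**
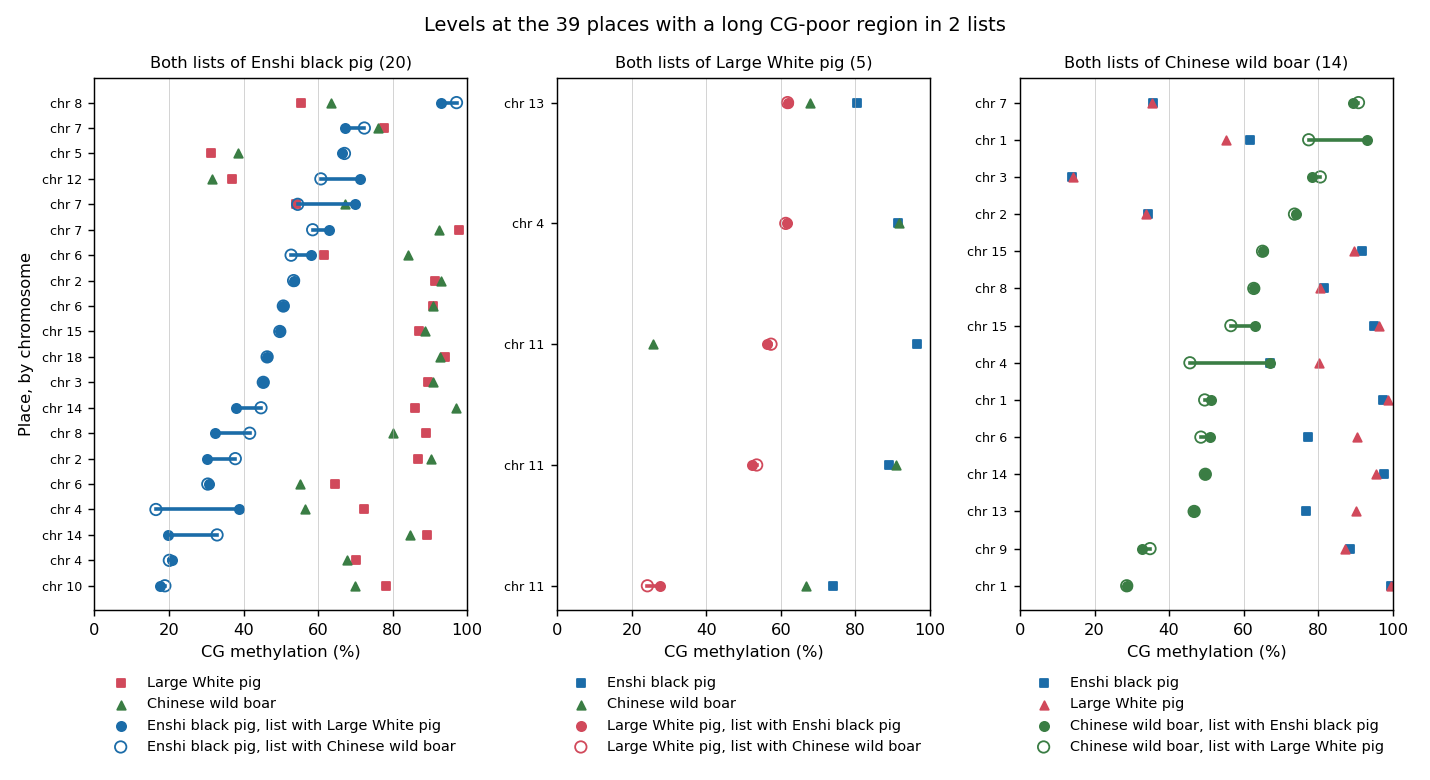
CG methylation level (%, x axis) of the 3 breeds at the 39 places with a long CG-poor region in 2 lists, 1 panel for the breed common to both lists and 1 row per place, labelled by chromosome (y axis); circles are the common breed, filled in one list and open in the other and joined by a line, and squares and triangles are the other breeds. The circles lie to the left of both other symbols in 29 of 39 places and to the right in 7.

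Only part of the study's gene models, nearly all on chromosome 1, was searched. Within 2000 bp upstream of its loci lay 3 of the 30 long CG-poor regions on chromosome 1, at 2 loci without a gene symbol, and 52 of all 1940 listed regions on that chromosome (2.68%). With 3 regions, of which 2 overlap, nothing is read from the shares. In the ES/WB list, 23 CG sites from 641974 to 643006 had 97.4% in ES and 51.4% in WB. In the LW/WB list, 32 CG sites from 641974 to 643168, upstream of the same locus, had 98.7% in LW and 49.5% in WB. WB was thus partly methylated where both other breeds were nearly fully methylated. Upstream of another locus, 5 CG sites from 138828074 to 138829470 had 30.8% in ES and 90.7% in WB, and 4 of them were listed. Genes at the places on other chromosomes were not analysed here.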

How the data were processed

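Bisulfite sequencing of liver DNA from 3 breeds, with 1 methylome each, was used as deposited. Bismark 0.15.0 and the build Sscrofa10.2, on which all positions are given, come from the processing notes of the submitters. Which program called the differences, and at which thresholds, was not given in the sources used here. Per site and region, the authors deposited each breed's methylation level as a fraction and, for sites, a standard error of the difference. Here these are given in percent and percentage points. Deposited differences, statistics, p-values and false discovery rates are the authors' own comparisons and were not used. Differences were recomputed from the levels. The level columns carry a number in place of a breed and were assigned by the order of the codes in the table's name. Which breed is which rests on that order, and the labels attach the ES/WB table to the LW sample and the LW/WB table to the WB sample. At places with equal bounds in 2 lists, this gave one breed the same level.

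Regions on chromosomes 1 to 18 of at least 1000 bp with under 0.10 CG sites per bp were kept. Regions of 2 lists overlapping by at least 1 bp were 1 place. Python 3.11.15 with pandas 2.3.3, numpy 2.4.6 and scipy 1.17.1 gave counts and medians. Plots were drawn in matplotlib 3.10.9. The selection and the pairing of lists were tested on simulated data. Each simulated place had the same bounds in both lists and 1 breed apart from the others. Unequal bounds, short overlaps and a common breed between the others were therefore not tested. Read depth was not used here, so no interval for a level is given. Named regions were, per list, chosen among the 3 longest, the 3 with the most CG sites, the 3 widest differences per direction, and the places in 2 lists. Those in the sentences on listed sites, on turns of direction and on places in 2 lists were picked after their values were seen, as were these counts. The members and rules were chosen with earlier results of these data known. Gene models were searched only as far as the parts used here, nearly all on chromosome 1. No genome of this build was used, so no sequence is shown.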

Additional observations from a re-analysis of the deposited data

How the results depend on the processing

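No paired analysis was possible because a breed is represented by 1 methylome. Alternatives gave 120 values for 27 results. Of 75 counts and shares, 60 stayed within 1.5 times (counts) or the 95% exact binomial interval (shares), and 15 moved, mostly counts that a stricter or wider rule changes by construction. The 45 medians were held against 1 SD over single regions, which is too wide to show stability. The binomial interval takes regions as independent, and the alternatives share regions with the main rule, so staying inside it does not show stability either. The order of the LW and WB medians turned under 4 of 5 alternatives and that of ES and LW under 2, with the values given above. With at least 1500 bp, 81, 91 and 47 regions were left (ES/LW, ES/WB, LW/WB), and with at least 750 bp the first list had 238. With a difference of at least 40 points, 70, 61 and 31 were left. Places that stood apart numbered 7 for ES, 1 for LW and 8 for WB with at least 1500 bp, and 8, 1 and 6 with at least 40 points. With at least 750 bp, LW had 7. By listed sites in place of regions, ES was lower than LW at 42.5%, on the other side of an even split from the 53.2% of regions, and the cause was not tested. The shares with a difference under 10 points and with sites in both directions, and their alternatives, were chosen after the data were seen. Over regions of at least 750 bp, at least 1500 bp, under 0.05 CG sites per bp and with chromosome X, the first ran from 6.29% to 10.3% and the second from 7.94% to 13.8%.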

Other observations

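Chromosome X, outside the autosomal rule, held 17, 10 and 18 regions of at least 1000 bp with under 0.10 CG sites per bp in the ES/LW, ES/WB and LW/WB lists. They made up 2.41%, 1.44% and 2.52% of the listed regions on X, beside 2.16%, 2.03% and 1.42% on autosomes. Their median differences were 48.9, 44.9 and 45.8 points. LW was higher than WB in 16 of 18, and in 67.0% of all listed regions on X. ES was higher than LW in 7 of 17 and higher than WB in 8 of 10, beside 35.8% and 54.9% of all listed regions on X.

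At 7 of the 39 places with a long CG-poor region in 2 lists, a region of any length from the third list also overlapped. On chromosome 6, inside a long region where ES had 58.1% and LW 61.5% over 18 CG sites (42148678 to 42150830), 6 CG sites (42150632 to 42150728) had 23.5% in LW and 95.2% in WB. The long ES/WB region of that place (42146351 to 42148896, 10 CG sites) had 52.8% in ES and 84.2% in WB, and 7 CG sites that overlap its start by 1 bp (42146242 to 42146351) had 95.1% in LW and 39.4% in WB. On chromosome 15, a region of 19 CG sites (153940173 to 153940952) that overlaps the start of the longest region between LW and WB had 39.9% in ES and 83.9% in LW.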
